A study of Mus musculus with 8 samples.

Results

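The 10 genes described here encode ligands (Jag1, Jag2, Dll1, Dll4), receptors (Notch1, Notch2, Notch4), the nuclear factor (Rbpj) and targets (Hes1, Dtx1) of the Notch pathway. They were taken as the array probes whose transcript accession maps to these mouse symbols, and they are 10 of 20145 genes with a symbol on the array. Of these, 9 passed the filter on dim probes and were tested, among 13867 tested genes with a symbol. The study addressed CD40 and the maturation of thymic dendritic cells, the antigen-presenting cells of the thymus, in mice. Total RNA of dendritic cells sorted from mouse thymus, with or without the surface receptor Sirpa and with mature or immature status, was labelled with Cy3 and measured on 8 Agilent arrays. The 4 groups, with 2 arrays each, were Sirpa-positive immature (replicates 5 and 3), Sirpa-positive mature (replicates 1 and 6), Sirpa-negative immature (replicates 7 and 4) and Sirpa-negative mature (replicates 2 and 8). No treatment is named in the labels, and the strain and age of the mice, the sort markers other than Sirpa and any pooling of animals are not stated in the labels. The labels also leave unsaid whether a group's arrays hold RNA of different animals or sorts, so each p-value reflects the spread of these samples alone, part of which may be technical.

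Notch signalling passes between touching cells: a ligand of the Jagged or Delta-like family on one cell binds a Notch receptor on its neighbour. The receptor is then cut, and its inner part enters the nucleus, binds Rbpj and switches on targets such as Hes1 and Dtx1. In the thymus, Delta-like ligand on epithelial cells and Notch1 on incoming progenitors set the T cell fate, and Notch2 is known for its role in dendritic cells of the spleen and gut.

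All 8 arrays lay on 1 slide in 2 rows, and each row held 1 array of each group. The array's 75th percentile of signal lay between 147 and 313 intensity units, and the share of spots detected well above background was 61.9% to 65.5% in row 1 and 52.9% to 57.9% in row 2. All 6 dendritic cell markers (Itgax, Flt3, Zbtb46, H2-Ab1, H2-Aa, Cd74) were well above background on all 8 arrays. Sirpa was higher in the Sirpa-positive samples by 6.83 ± 0.224 among immature and 4.82 ± 0.224 among mature cells, as log2 differences with their SE (n = 2 arrays per group; limma adjusted p = 2.28e-05 and 8.67e-05). Ccr7, the chemokine receptor of mature dendritic cells, was higher in mature samples by 6.16 ± 0.597 and 5.69 ± 0.597 in the Sirpa-positive and Sirpa-negative cells (adjusted p = 0.00255 and 0.00159). All 8 tested macrophage genes were higher in the Sirpa-positive subset of immature cells, where 7.23% of all genes were. C1qc and Mertk among them passed the filter through the Sirpa-positive groups alone, so their direction is not independent of the filter. C1qa, a complement gene of macrophages, differed between the immature subsets by 10.1 ± 0.378 on the log2 scale (adjusted p = 2.37e-05). With 2 arrays per group, their number limits the precision. In sorted samples, fewer expressing cells and less RNA per cell cannot be told apart.

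The stretches 5′ of the transcription start are shown for 5 genes: Jag1 and Dll4, which were both higher in mature than in immature cells, Jag2 and Notch4, both higher in Sirpa-negative cells, and Rbpj, the pathway's DNA-binding factor. Each is the 250 bases before the start in RefSeq (GRCm38.p6), written 5′ to 3′ on the gene's strand. Capitals mark the RBPJ hexamer TGGGAA or the GC box GGGCGG, on either strand; in Jag2 a pair of GC boxes overlap.

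Jag1, chr2:137116521-137116770, minus strand: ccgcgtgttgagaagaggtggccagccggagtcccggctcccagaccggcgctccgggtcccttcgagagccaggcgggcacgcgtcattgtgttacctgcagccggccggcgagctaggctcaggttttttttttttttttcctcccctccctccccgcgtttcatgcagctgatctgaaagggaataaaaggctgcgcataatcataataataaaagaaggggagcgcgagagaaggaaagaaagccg
Dll4, chr2:119325534-119325783, plus strand: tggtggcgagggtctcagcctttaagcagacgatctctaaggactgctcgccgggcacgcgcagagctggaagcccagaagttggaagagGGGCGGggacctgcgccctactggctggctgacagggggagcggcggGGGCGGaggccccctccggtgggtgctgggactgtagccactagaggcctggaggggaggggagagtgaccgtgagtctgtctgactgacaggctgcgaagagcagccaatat
Jag2, chr12:112929496-112929745, minus strand: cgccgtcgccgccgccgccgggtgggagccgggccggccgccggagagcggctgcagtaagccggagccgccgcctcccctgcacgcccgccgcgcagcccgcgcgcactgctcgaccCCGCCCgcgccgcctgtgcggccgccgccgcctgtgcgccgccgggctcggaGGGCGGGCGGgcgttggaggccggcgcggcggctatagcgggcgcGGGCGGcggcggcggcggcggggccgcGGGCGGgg
Notch4, chr17:34564045-34564294, plus strand: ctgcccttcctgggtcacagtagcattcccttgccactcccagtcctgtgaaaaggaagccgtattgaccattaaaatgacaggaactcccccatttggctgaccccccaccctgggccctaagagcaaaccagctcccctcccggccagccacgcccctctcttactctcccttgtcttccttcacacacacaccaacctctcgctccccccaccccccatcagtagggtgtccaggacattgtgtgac
Rbpj, chr5:53590096-53590345, plus strand: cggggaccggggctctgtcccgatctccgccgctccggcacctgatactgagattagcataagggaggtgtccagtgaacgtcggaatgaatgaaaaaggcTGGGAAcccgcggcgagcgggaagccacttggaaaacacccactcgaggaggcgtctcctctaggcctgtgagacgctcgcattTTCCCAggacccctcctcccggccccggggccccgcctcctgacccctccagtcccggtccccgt

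Among these stretches the RBPJ hexamer stood in Rbpj, at 2 places (a later RefSeq start of this gene holds 1), and the GC box in Dll4 (2 places) and Jag2 (5 places). Neither stood in Jag1 or Notch4. Over 32851 RefSeq promoter stretches of the same length, 21.6% held TGGGAA and 32.7% held GGGCGG. No stretch was at hand for Hes1, so it was not searched for any motif. The TATA motif TATANA, in 22.6% of all stretches, was in none of the other members' stretches. The kappaB consensus, in 3.90% of all, was in Notch2's. These are matches of letters in this window and say nothing of binding.

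Levels are log2 processed signals from which each array's 75th percentile was taken off, so 0 is the level of that percentile, and a difference of 1 is a doubling of signal. They may be compared between arrays for a gene, not between genes. Each pair of values is the array in row 1, then the array in row 2.

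**Figure D1:**
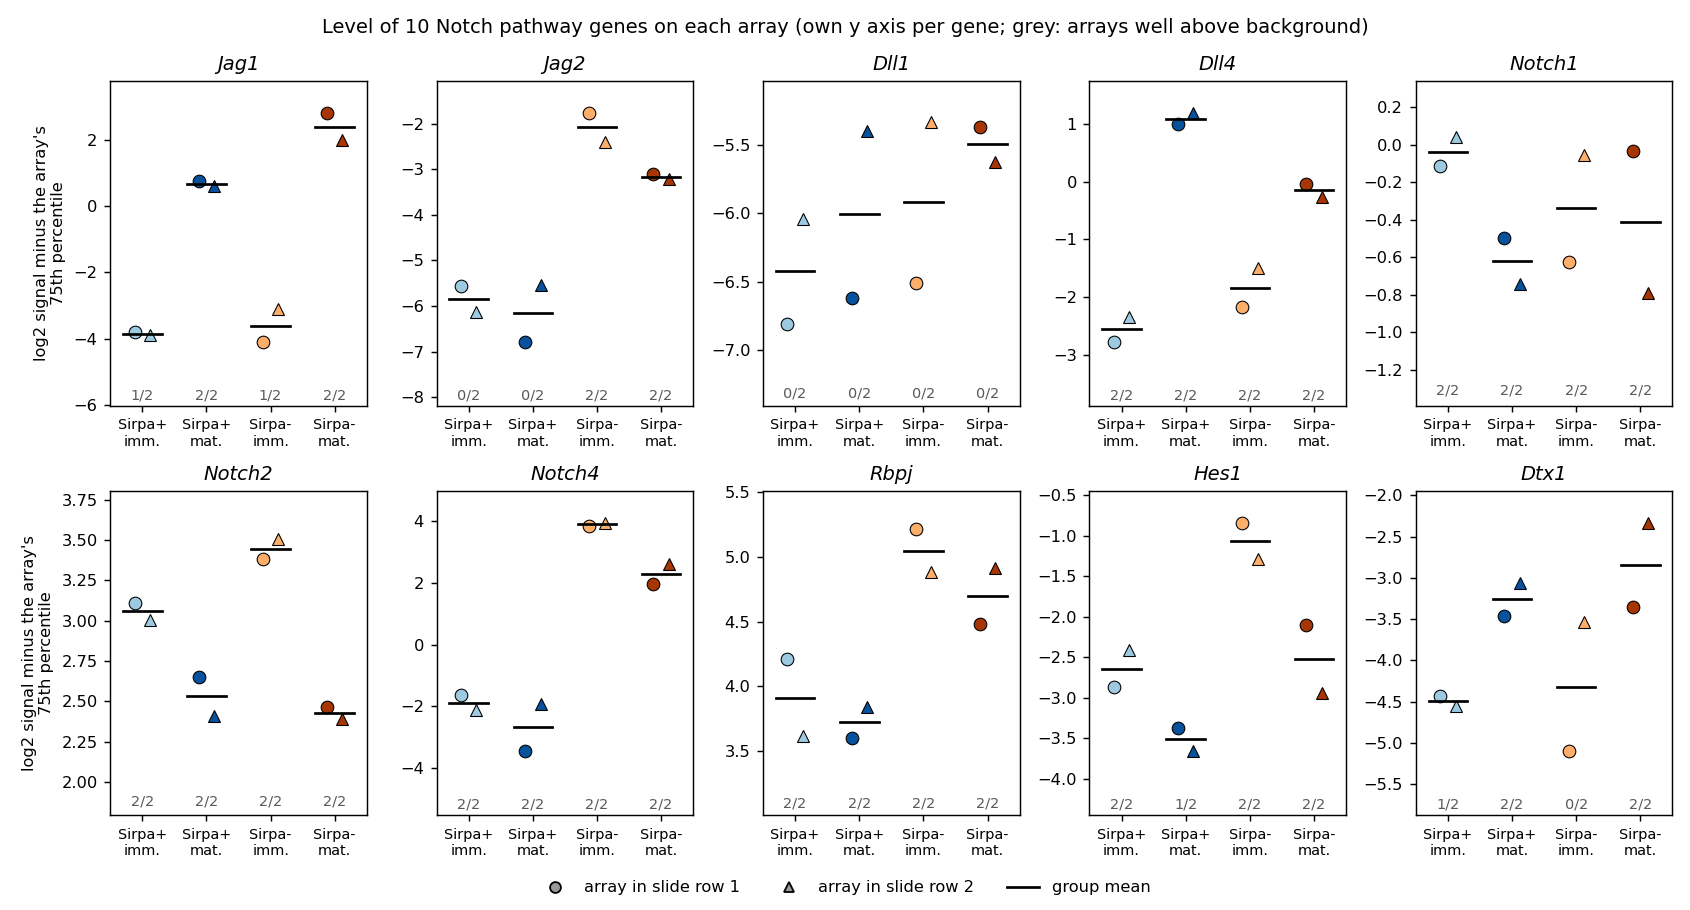
Each panel plots the log2 level of a gene (y axis, log2 signal minus the array's 75th percentile, own scale per gene) on the 8 arrays by group (x axis), with circles for row 1, triangles for row 2 and a line for the group mean; grey fractions give the arrays well above background. Jag1 and Dll4 lie higher in both mature groups, Notch4 and Jag2 lie higher in both Sirpa-negative groups, and Dll1 is at 0/2 throughout.

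Genes were called at a limma adjusted p under 0.05, with Benjamini-Hochberg adjustment over 24148 genes in each comparison. With maturation of Sirpa-positive cells 2 of the 9 tested genes rose, Jag1 and Dll4, and 0 fell, where 4.35% of all genes tested rose and 2.54% fell. With maturation of Sirpa-negative cells Jag1 and Dll4 rose and Hes1 and Notch2 fell, against 9.23% of all genes risen and 7.24% fallen. Among immature cells 0 members were higher in the Sirpa-positive subset and 4 were lower (Notch4, Jag2, Hes1, Rbpj), where 7.23% of all genes were higher and 4.39% lower. Among mature cells 0 were higher and 3 lower (Notch4, Jag2, Jag1), where 3.38% of all genes were higher and 2.10% lower. At an unadjusted p under 0.05 the counts were 4, 7, 5 and 6 of 9 in these comparisons, and among all genes 20.2%, 29.8%, 24.6% and 16.7% reached it. The groups compared did not overlap for 6, 7, 6 and 6 of the 9, while among all genes 51.1%, 57.1%, 59.3% and 40.8% did not overlap, so a gap between groups of 2 is common here. The members' median log2 difference was -0.32 (maturation, Sirpa-positive), -0.35 (maturation, Sirpa-negative), -0.72 (subset, immature) and -0.98 (subset, mature). Over all genes these medians were 0.03, -0.01, -0.11 and -0.07. Comparisons that share a group share its 2 arrays. Every called member had the same direction within row 1 and within row 2. This had to be so, as the groups compared did not overlap for any called member.

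Jag1, a ligand of the Jagged family, was the member that rose most with maturation in both subsets. Its level was -3.81 and -3.89 in Sirpa-positive immature cells and 0.76 and 0.60 in Sirpa-positive mature cells. In Sirpa-negative cells it went from -4.09 and -3.12 (immature) to 2.80 and 1.98 (mature). Both mature groups lay far above both immature groups, and the Sirpa-negative mature arrays lay above the Sirpa-positive mature ones. The immature groups overlapped, with 1 of 2 arrays well above background in each. Jag1 thus passed the filter through the mature groups alone, and its place in the counts of risen genes above rests on that choice. The log2 rise was 4.53 ± 0.382 (SE, n = 2 arrays per group), or 23.0-fold, in Sirpa-positive cells (adjusted p = 0.00173) and 5.996 ± 0.382, or 63.8-fold, in Sirpa-negative cells (adjusted p = 0.000445). Both calls held in 19 of 19 alternative settings, and the size varied: the rise in Sirpa-positive cells was 2.44 with normexp background correction and quantile normalization and 3.03 with the authors' values. In Sirpa-negative cells those settings gave 3.89 and 4.52.

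Among mature cells Jag1 was lower in the Sirpa-positive subset by a log2 difference of -1.71 ± 0.382, which is 3.28-fold higher in Sirpa-negative cells (adjusted p = 0.0483). The difference was -2.04 in row 1 and -1.39 in row 2, and with the row as a block the adjusted p was 0.084. The call was lost when any of 6 arrays was left out: Sirpa-positive mature replicate 1 (adjusted p = 0.134) or 6 (0.201), Sirpa-negative mature replicate 2 (0.197) or 8 (0.0603), or Sirpa-positive immature replicate 5 or 3 (0.0941 each). Among immature cells the Jag1 difference was -0.24 ± 0.382 (adjusted p = 0.742). The genes whose levels followed Jag1 most closely over the 8 arrays, among 13838 searched, were Ptpn21 (Pearson r = 0.997), Irf1 (0.996) and Eno3 (0.996). Irf1 encodes an interferon regulatory factor and Eno3 a glycolytic enzyme.

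Dll4, a Delta-like ligand, rose with maturation in both subsets, and its highest group was Sirpa-positive mature. Its level was -2.77 and -2.34 in Sirpa-positive immature cells and 0.99 and 1.19 after maturation. In Sirpa-negative cells it was -2.18 and -1.49 (immature) and -0.04 and -0.26 (mature). No neighbouring groups in the order of levels overlapped: Sirpa-positive mature, Sirpa-negative mature, Sirpa-negative immature, Sirpa-positive immature. All 8 arrays were well above background. The log2 rise was 3.65 ± 0.288 in Sirpa-positive cells, or 12.5-fold (adjusted p = 0.00146), and 1.69 ± 0.288 in Sirpa-negative cells, or 3.22-fold (adjusted p = 0.00945). The former call held in 20 of 20 alternatives, with a log2 rise of 2.44 under normexp and quantile normalization. The latter was lost in 1 of 20, without Sirpa-negative mature replicate 2 (log2 rise 1.57, adjusted p = 0.0585), and was 1.01 under normexp and quantile normalization.

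The difference between the rises of Dll4, larger in Sirpa-positive cells by 1.96 ± 0.407 on the log2 scale, did not pass (unadjusted p = 0.00175, adjusted p = 0.155), and it was 1.62 in row 1 and 2.30 in row 2. Across its 19 alternatives it passed with normexp and quantile normalization alone (1.43, adjusted p = 0.0449). Of the 9 tested members 0 passed this test of a difference between maturation effects, and of all genes 0% did; at an unadjusted p under 0.05 there were 2 members and 8.06% of all genes. The other was Jag1, with a difference of -1.47 ± 0.541 (unadjusted p = 0.0288, adjusted p = 0.519). Between the mature subsets Dll4 differed by 1.24 ± 0.288, higher in Sirpa-positive cells. This missed the threshold (adjusted p = 0.0556) and passed in 9 of 20 alternatives, among them with title numbers 1 to 4 against 5 to 8 as a block (adjusted p = 0.0424), but not with the slide row as a block (0.0706). Genes nearest to Dll4 over the 8 arrays were Dnajb9 (r = 0.984), Gm14207 (0.977) and Grin2c (0.976). Dnajb9 encodes a chaperone of the endoplasmic reticulum.

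Jag2, the other Jagged ligand, was measured only in Sirpa-negative cells. Its level was -1.77 and -2.40 in the immature and -3.11 and -3.23 in the mature Sirpa-negative samples. In Sirpa-positive cells its signal was -5.56 and -6.12 (immature) and -6.79 and -5.54 (mature), and 0 of these 4 arrays were well above background. The subset difference was therefore a bound: at least 4.97-fold higher in Sirpa-negative immature cells and at least 1.70-fold higher in Sirpa-negative mature cells. For this bound the mean of the brighter group was divided by the lowest signal called above background on each dim array, or the probe's own where that was higher. Jag2 passed the filter through the Sirpa-negative groups alone, so it had to be the higher there, and its place in the counts of lower genes above rests on that choice. The measured log2 differences were -3.76 ± 0.433 and -2.99 ± 0.433. The first held in 19 of 19 alternatives but was -0.90 under normexp and quantile normalization and -1.37 with the authors' values. The mature difference was lost under these settings (-0.50, adjusted p = 0.175, and -0.83, adjusted p = 0.0795) and without Sirpa-negative mature replicate 2 (adjusted p = 0.0529) or 8 (0.0535).

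With maturation of Sirpa-negative cells Jag2 differed by -1.09 ± 0.433 (adjusted p = 0.143), and its arrays did not overlap. Pml (r = 0.997), Fam102a (0.992) and Cdc14a (0.990) followed the Jag2 signal most closely. Dll1, another Delta-like ligand, was not well above background on any of the 8 arrays, where its probe has 10 spots. Its signal lay between -6.80 and -5.34, the groups overlapped, and it was not tested.

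**Figure D2:**
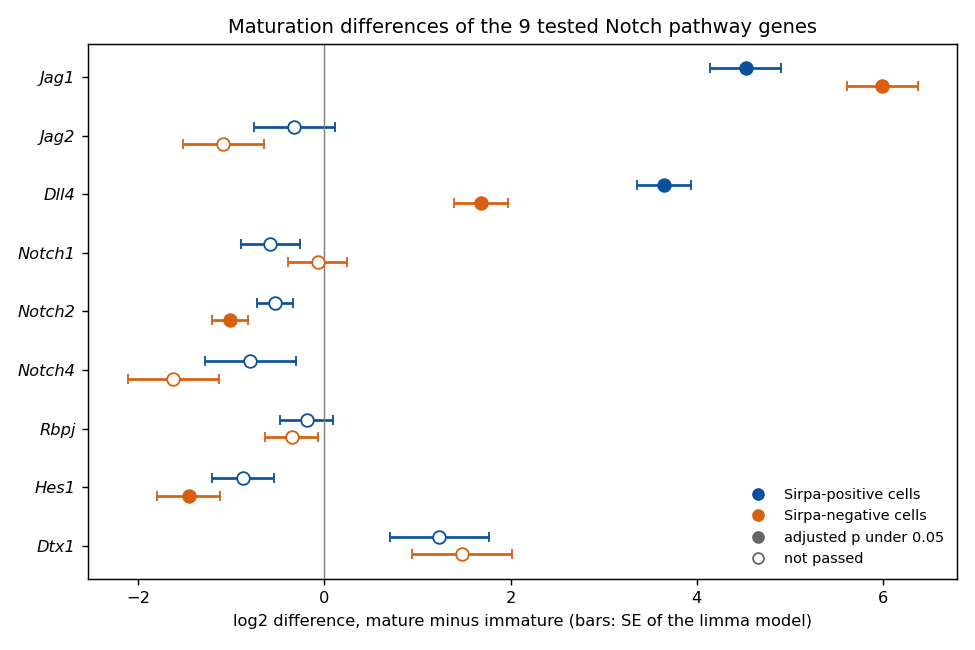
The log2 difference between mature and immature cells (x axis, with the SE of the limma model as bars) is plotted for the 9 tested genes (y axis), in Sirpa-positive cells (blue) and Sirpa-negative cells (orange); filled points passed an adjusted p of 0.05. Jag1 and Dll4 are filled on the right in both subsets, and Hes1 and Notch2 are filled on the left in Sirpa-negative cells.

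Among the receptors, Notch4 gave the largest subset difference of the 9 tested genes. Its level was -1.64 and -2.12 (immature) and -3.45 and -1.91 (mature) in Sirpa-positive cells. In Sirpa-negative cells it was 3.85 and 3.95 (immature) and 1.96 and 2.60 (mature). All Sirpa-negative arrays lay above all Sirpa-positive ones, and all 8 were well above background. Notch4 was 55.2-fold higher in the Sirpa-negative subset of immature cells (log2 difference -5.79 ± 0.491, adjusted p = 0.000430) and 31.1-fold higher among mature cells (-4.96 ± 0.491, adjusted p = 0.00156). Both calls held in 20 of 20 alternatives, with log2 differences from -6.03 to -4.67 and from -5.73 to -3.43.

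Notch4 was lower in mature than in immature Sirpa-negative cells, by -1.62 ± 0.491, with no overlap and an adjusted p of 0.0653. It passed in 8 of 20 alternatives, among them without Sirpa-positive mature replicate 1 or 6 (adjusted p = 0.0193 each), and with title numbers 1 to 4 against 5 to 8 as a block (0.0318), while with the slide row as a block its adjusted p was 0.0691. In Sirpa-positive cells the maturation difference was -0.80 ± 0.491 (adjusted p = 0.442) and the groups overlapped. Notch4 is known from endothelial cells. Of the endothelial genes listed, Cdh5 and Tek were well above background on 0 of 8 arrays, and Pecam1, Kdr, Vwf and Esam on 8 of 8. Vwf, the von Willebrand factor, differed like Notch4 between the immature subsets (-1.89 ± 0.290, adjusted p = 0.00596) and fell with maturation of Sirpa-negative cells by 1.85 (adjusted p = 0.00696). Kdr and Pecam1 were higher in Sirpa-positive immature cells, by 2.52 and 2.30 (adjusted p = 0.000773 and 0.00791), opposite to Notch4. The part of endothelial RNA in the Notch4 differences was not tested. The most alike genes were Cadm1 (r = 0.997), an adhesion molecule of type 1 dendritic cells, Plpp1 (0.995) and Fuca1 (0.994).

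Notch2 varied within a range of little more than 1 log2 unit. Its level was 3.11 and 3.01 (Sirpa-positive immature), 2.65 and 2.41 (Sirpa-positive mature), 3.38 and 3.51 (Sirpa-negative immature) and 2.47 and 2.39 (Sirpa-negative mature). Immature arrays were higher than mature arrays in both subsets, without overlap, and the mature groups overlapped. Notch2 fell with maturation by 1.02 on the log2 scale (SE 0.195) in Sirpa-negative cells, a 2.02-fold change (adjusted p = 0.0143). In Sirpa-positive cells the difference was -0.53 ± 0.195 (adjusted p = 0.181). A probe of Notch2 with a lower signal gave -0.88 ± 0.222 in Sirpa-negative cells (adjusted p = 0.0377). The call was lost without any of the 4 Sirpa-negative arrays: immature replicate 7 (adjusted p = 0.0522) or 4 (0.0778), or mature replicate 2 (0.0575) or 8 (0.0517). Nol11 (r = 0.994), Prmt3 (0.988) and Ostc (0.987) were nearest to Notch2.

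Notch1, the receptor that sets the T cell fate, passed in no comparison. Its level was -0.11 and 0.04 (Sirpa-positive immature), -0.50 and -0.74 (Sirpa-positive mature), -0.62 and -0.06 (Sirpa-negative immature) and -0.03 and -0.79 (Sirpa-negative mature). The arrays of the Sirpa-negative groups spread as widely as the groups differed. The 4 pairwise log2 differences lay between -0.58 and 0.30, each with an SE of 0.316 (adjusted p from 0.372 to 0.911). A probe of Notch1 with a lower signal gave maturation differences of -1.26 ± 0.477 in Sirpa-positive and -1.02 ± 0.477 in Sirpa-negative cells, which did not pass either (adjusted p = 0.188 and 0.205).

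**Figure D3:**
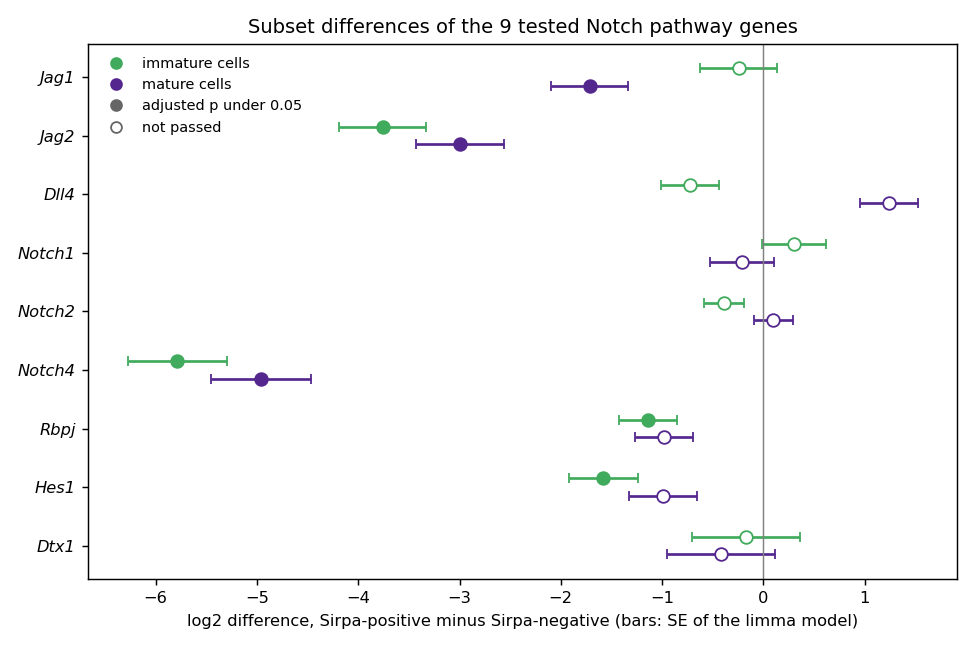
The log2 difference between Sirpa-positive and Sirpa-negative cells (x axis, with the SE of the limma model as bars) is plotted for the 9 tested genes (y axis), among immature cells (green) and mature cells (purple); filled points passed an adjusted p of 0.05. The 7 filled points all lie left of 0, which is higher in Sirpa-negative cells, and Notch4 and Jag2 are filled in both states.

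Rbpj, the factor through which Notch receptors act on DNA, was well above background on all 8 arrays. Its level was 4.21 and 3.61 (immature) and 3.60 and 3.84 (mature) in Sirpa-positive cells, and 5.21 and 4.89 (immature) and 4.48 and 4.92 (mature) in Sirpa-negative cells. All Sirpa-negative arrays lay above all Sirpa-positive ones, and within each subset the maturation states overlapped. Rbpj was 2.20-fold higher in Sirpa-negative immature cells (log2 difference -1.14 ± 0.285, adjusted p = 0.0443). The call was lost when any 1 of the 8 arrays was left out (adjusted p from 0.0507 to 0.287) and held in 6 of 21 alternatives; with the row as a block its adjusted p was 0.080. It was -1.003 in row 1 and -1.27 in row 2, and a probe of Rbpj with a lower signal gave -0.86 ± 0.260 (adjusted p = 0.0880). Among mature cells the difference was -0.98 ± 0.285 (adjusted p = 0.117), which passed in 3 of 21 alternatives, among them title numbers 1 to 4 against 5 to 8 as a block (0.0347). Stard3nl (r = 0.989), Cdk2ap1 (0.983) and Gm4736 (0.982) were most like Rbpj.

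Hes1, a transcriptional repressor and a common target of Notch, was highest in Sirpa-negative immature cells. Its level there was -0.84 and -1.28, and it was -2.10 and -2.94 in Sirpa-negative mature cells. In Sirpa-positive cells it was -2.86 and -2.41 (immature) and -3.37 and -3.66 (mature, 1 of 2 arrays well above background). The Sirpa-negative immature arrays lay above the other 6, and the Sirpa-negative mature and Sirpa-positive immature groups overlapped. Hes1 fell with maturation of Sirpa-negative cells by 1.46 on the log2 scale (SE 0.337), a 2.75-fold change (adjusted p = 0.0271). Among immature cells it was 2.99-fold higher in the Sirpa-negative subset (log2 difference -1.58 ± 0.337, adjusted p = 0.0242). The fall was lost without Sirpa-negative immature replicate 7 (adjusted p = 0.121) or 4 (0.0584) or mature replicate 8 (0.0949). With dim probes kept neither passed (adjusted p = 0.0919 and 0.0863), and with normexp and quantile normalization the differences were -0.79 and -0.74 and passed. The subset difference was lost without Sirpa-negative immature replicate 7 (adjusted p = 0.115) or Sirpa-positive immature replicate 5 (0.139) or 3 (0.0749).

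In Sirpa-positive cells Hes1 differed by -0.87 ± 0.337 with maturation (adjusted p = 0.199), and among mature cells by -0.99 ± 0.337 between subsets (adjusted p = 0.180); neither passed. The genes nearest to Hes1 were Nars (r = 0.995), which encodes a tRNA synthetase, Gt(ROSA)26Sor (0.987) and Tmtc3 (0.986).

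Dtx1, an E3 ubiquitin ligase of the Deltex family, was dim and passed in no comparison of the model over all 8 arrays. Its level was -4.43 and -4.56 (Sirpa-positive immature, 1 of 2 arrays well above background), -3.46 and -3.06 (Sirpa-positive mature), -5.10 and -3.54 (Sirpa-negative immature, 0 of 2) and -3.35 and -2.33 (Sirpa-negative mature). Mature arrays were higher than immature ones in both subsets, without overlap. Dtx1 passed the filter through the mature groups alone, so this direction is not independent of the filter. The log2 differences were 1.23 ± 0.534 in Sirpa-positive cells (adjusted p = 0.254) and 1.48 ± 0.534 in Sirpa-negative cells (adjusted p = 0.110). For the latter, the bound computed as for Jag2 was 2.06-fold, but as the difference did not pass, it gives no least rise. With only the 4 arrays compared in the model, the former passed (adjusted p = 0.0473). Without Sirpa-negative immature replicate 4 the latter difference was 2.26 and passed (adjusted p = 0.0306).

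Beyond these 10 genes, 74 other genes of the pathway were listed in 11 groups, of which 71 were matched on the array and 65 were tested. In Sirpa-positive cells 6 of the 65 rose and 2 fell with maturation, where 4.35% and 2.54% of all genes did, and in Sirpa-negative cells 9 rose and 6 fell, where 9.23% and 7.24% did. Among immature cells 4 were higher and 1 lower in the Sirpa-positive subset, where 7.23% and 4.39% of all genes were. Among mature cells 4 were higher and 0 lower, where 3.38% and 2.10% were. The difference between maturation effects passed in 0 of the 65 by limma, and 8 had an unadjusted p under 0.05, as had 8.06% of all genes. The medians of the 65 log2 differences were -0.05, 0.01, 0.11 and 0.03 in the 4 comparisons, beside the medians over all genes given above.

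**Figure D4:**
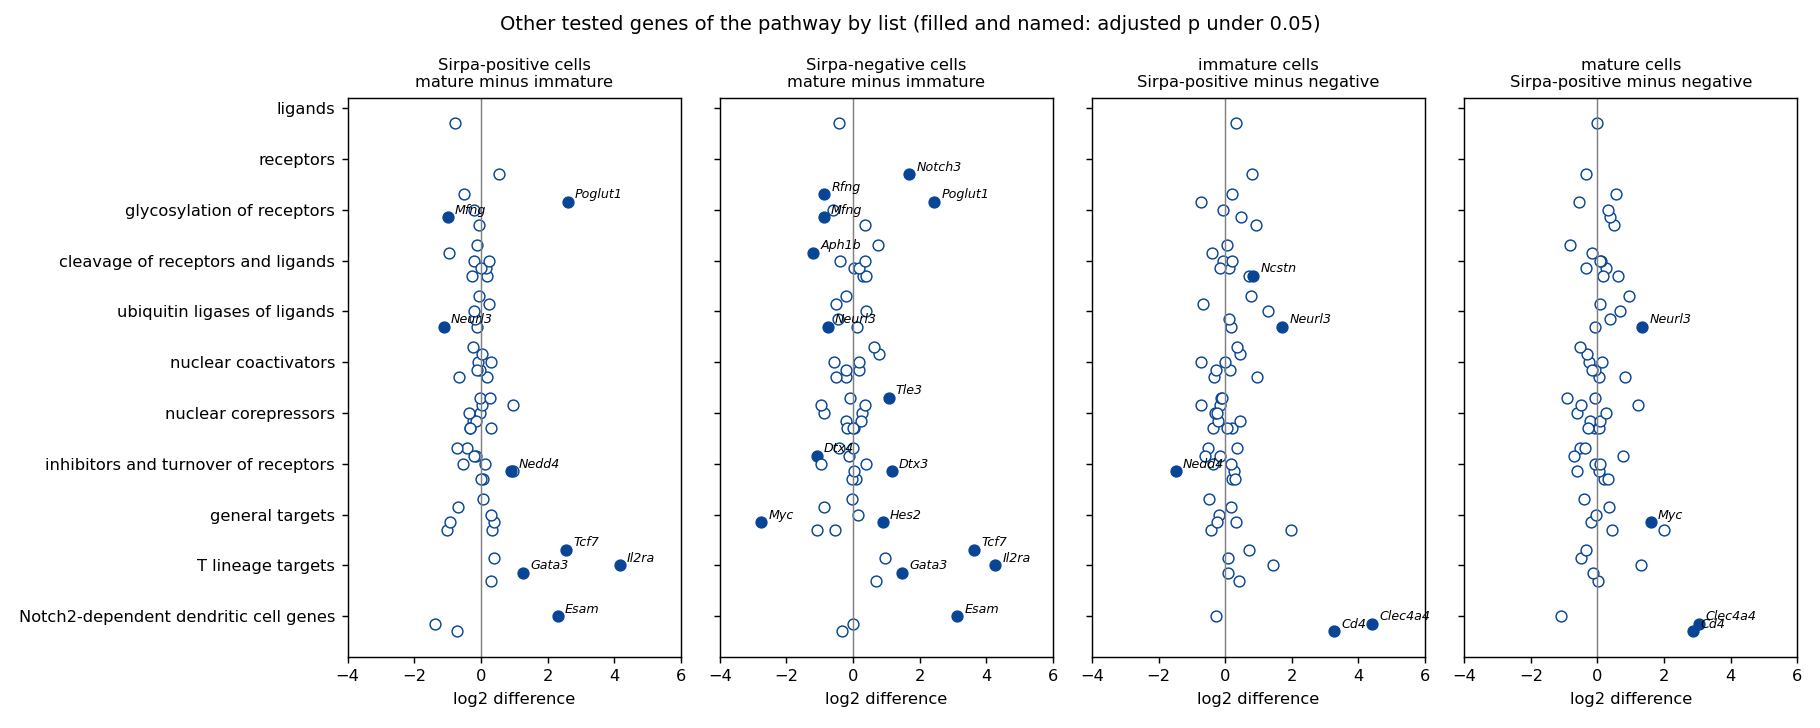
Each point is 1 of the 65 other tested genes of the pathway, placed by its log2 difference (x axis) and its list (y axis) in the 4 comparisons (panels); filled and named points passed an adjusted p of 0.05, and points are offset vertically for legibility. The T lineage genes Il2ra, Tcf7 and Gata3 are filled on the right in both maturation panels, and no coactivator is filled in any panel.

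Of the other ligands, Dlk1 alone was tested and did not pass, while Dll3 and Dner did not pass the filter. Dlk2 and the cleavage gene Aph1c were not analysed here. Notch3, the remaining receptor, rose with maturation of Sirpa-negative cells (log2 difference 1.68 ± 0.324, adjusted p = 0.0143, 1 of 2 immature arrays well above background). In Sirpa-positive cells its difference was 0.56 ± 0.324 (adjusted p = 0.412).

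Among the 5 enzymes that add sugars to Notch receptors, Poglut1, the O-glucosyltransferase, rose in both subsets. Its log2 rise was 2.61 ± 0.250 in Sirpa-positive and 2.44 ± 0.250 in Sirpa-negative cells (adjusted p = 0.00247 and 0.00143), or 6.10-fold and 5.42-fold. Mfng, a Fringe glycosyltransferase that alters which ligands a receptor answers to, fell by 0.99 and 0.88 (SE 0.204 each; adjusted p = 0.0328 and 0.0271). Rfng, another Fringe gene, fell by 0.86 in Sirpa-negative cells (adjusted p = 0.0285). Lfng and Pofut1 did not pass.

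Of 8 tested genes for the cleavage of receptors and ligands, Aph1b, a subunit of gamma-secretase, fell with maturation of Sirpa-negative cells by 1.20 (adjusted p = 0.0295). Ncstn, another subunit, was higher in Sirpa-positive immature cells by 0.84 (adjusted p = 0.0304). The remaining 6 passed in no comparison. Among 6 Mib and Neurl genes, listed for ubiquitin ligases of ligands, Neurl3 fell by 1.12 and 0.76 with maturation (adjusted p = 0.0203 and 0.0409). It was higher in Sirpa-positive cells by 1.70 and 1.34 (adjusted p = 0.00168 and 0.00925), and the other 5, Mib1 among them, did not pass. Whether Neurl3 acts on Notch ligands was not tested.

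None of the 8 nuclear coactivators, Maml1 to Maml3 and Ep300 among them, passed in any comparison (0 called by limma; at an unadjusted p under 0.05, 0, 2, 2 and 0 in the order used above). Of 11 corepressors, Tle3 alone rose with maturation of Sirpa-negative cells, by 1.07 (adjusted p = 0.0284). Among 10 tested inhibitors and turnover genes, Nedd4, a ubiquitin ligase, rose by 0.90 in Sirpa-positive cells (adjusted p = 0.0327) and differed by -1.49 between the immature subsets, lower in Sirpa-positive cells (adjusted p = 0.00228). In Sirpa-negative cells Dtx3 rose by 1.16 and Dtx4 fell by 1.09 (adjusted p = 0.0302 and 0.0264).

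Of the 11 general targets 7 were tested, and Hey2, Heyl and Nrarp were well above background on 0 of 8 arrays. Myc, a growth regulator, fell by 2.76 with maturation of Sirpa-negative cells (SE 0.360, adjusted p = 0.00346) and among mature cells was higher in the Sirpa-positive subset by 1.61 (adjusted p = 0.0491). Hes2 rose by 0.90 in Sirpa-negative cells (adjusted p = 0.0419). Hes5, Hes6, Hes7, Hey1 and Ccnd1 did not pass.

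Of 5 genes known as Notch targets in early T cells, 3 rose with maturation in each subset. Il2ra, the interleukin receptor chain CD25, rose by 4.17 ± 0.396 in Sirpa-positive cells, or 17.9-fold (adjusted p = 0.00244). In Sirpa-negative cells, where 0 of 2 immature arrays were well above background, it was at least 9.03-fold higher after maturation. The measured log2 difference there was 4.27 (limma adjusted p = 0.00102). Tcf7, a T lineage transcription factor, rose by 2.56 ± 0.262 and 3.63 ± 0.262 (adjusted p = 0.00317 and 0.000547). Gata3 rose by 1.27 and 1.47 (adjusted p = 0.0480 and 0.0167), and Ptcra and Bcl11b did not pass.

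Of 3 genes that depend on Notch2 in dendritic cells of the spleen, the adhesion molecule Esam rose with maturation by 2.30 ± 0.492 and 3.13 ± 0.492 (adjusted p = 0.0372 and 0.00695). Cd4 was higher in Sirpa-positive cells by 3.26 among immature and 2.88 among mature cells (adjusted p = 0.000163 and 0.000593). Clec4a4, a lectin, was at least 4.31-fold and at least 2.24-fold higher in Sirpa-positive immature and mature cells. Its measured log2 differences were 4.42 and 3.03 (limma adjusted p = 0.000652 and 0.00660). It passed the filter through the Sirpa-positive groups alone, so it had to be the higher there. Its place in the counts of higher pathway genes above rests on that choice.

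Markers of other cell types moved with some of these groups. Of 18 thymocyte genes, 6 were higher and 0 lower in mature Sirpa-positive cells, where 4.35% and 2.54% of all genes were. In mature Sirpa-negative cells 12 were higher and 0 lower, where 9.23% and 7.24% of all genes were. The summed level of the 18 thymocyte genes, as linear signal over the array's 75th percentile, lay at 17.9 to 18.8 (Sirpa-positive immature), 47.3 to 49.2 (Sirpa-positive mature), 29.1 to 43.0 (Sirpa-negative immature) and 76.5 to 99.4 (Sirpa-negative mature). Cd8a, which type 1 dendritic cells express too, made up between 7.24% and 65.9% of this sum on the 8 arrays. Without Cd8a the sum lay at 16.0 to 17.5 and 40.5 to 44.4 in Sirpa-positive immature and mature cells. In the Sirpa-negative ones it then lay at 14.4 to 14.7 (immature) and 51.9 to 58.8 (mature), so the order of the immature subsets was reversed. Tcf7, Ptcra and Bcl11b are in this list too. Rag2, also in it, passed the filter through the Sirpa-negative mature group alone, so its direction is not independent of the filter. Its place in the count of 12 above rests on that choice. Of the defining genes, Cd3e was well above background on 8 of 8 arrays, and its log2 difference with maturation was 0.73 ± 0.202 (Sirpa-positive, adjusted p = 0.0850) and 1.17 ± 0.202 (Sirpa-negative, adjusted p = 0.00996). The part of thymocyte RNA in the differences of Hes1, Dtx1, Notch1, Notch3 and the T lineage genes was not tested.

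The summed level of 8 macrophage genes lay at 469 to 610 and 376 to 393 in Sirpa-positive immature and mature cells, and at 12.9 to 14.7 and 10.96 to 11.8 in the Sirpa-negative ones. Its part in the subset differences of Notch4, Jag2, Hes1, Rbpj and Neurl3 was not tested. The summed level of the 9 endothelial genes lay between 3.78 and 16.4, and Kdr made up 26.1% to 89.6% of it. Without Kdr it lay at 2.96 to 3.60 and 1.48 to 1.93 in Sirpa-positive immature and mature cells. In the Sirpa-negative ones it then lay at 2.62 to 3.65 (immature) and 2.23 to 2.55 (mature). Of the 7 endothelial genes tested, 1 rose (Esam) and 1 fell (Pecam1) with maturation of Sirpa-positive cells, and Kdr and Esam rose and Vwf fell in Sirpa-negative cells. Kdr rose there by 2.94 ± 0.246 (adjusted p = 0.000798). Esam is also the Notch2-dependent gene above, and the part of endothelial RNA in its rise was not tested. Of 11 thymic epithelial genes, Psmb11 and Krt8 did not pass the filter. Their summed level lay between 227 and 306, of which Trp63 alone made up at least 93.7%, and without Trp63 between 3.94 and 15.4. Krt5 rose with maturation of Sirpa-negative cells by 1.71 (adjusted p = 0.00209), Epcam fell with that of Sirpa-positive cells by 1.75 (adjusted p = 0.0181), and both were higher in Sirpa-positive immature cells, by 1.89 and 2.14 (adjusted p = 0.000996 and 0.00395). Aire, which is in that list, was higher in mature samples by 2.29 ± 0.358 (Sirpa-positive) and 2.86 ± 0.358 (Sirpa-negative; adjusted p = 0.0132 and 0.00294). Of 8 genes of fibroblasts and pericytes, Pdgfra, Pdgfrb, Col1a1 and Lum did not pass the filter, and the summed level of the 8 lay between 0.387 and 2.12. All 7 genes of mature dendritic cells rose with maturation in both subsets. Of 5 type 1 dendritic cell genes, 5 were lower in Sirpa-positive immature cells and 4 in Sirpa-positive mature cells. The 6 type 2 dendritic cell genes include Sirpa itself and also Clec4a4, a gene that passed the filter through the Sirpa-positive groups alone. Of the 6, 5 and 4 were higher in Sirpa-positive immature and mature cells. Of 7 plasmacytoid dendritic cell genes 3 and 2 were higher there. Lower in Sirpa-positive cells was 1 of the 7 among immature cells, Ccr9 (log2 difference -1.08, limma adjusted p = 0.0449), and 0 among mature cells.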

How the data were processed

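RNA from 8 samples of sorted thymic dendritic cells was measured on 8 arrays of 1 colour. Scanner files deposited by the authors give background-subtracted spot intensity, which the file headers credit to Feature Extraction 10.7.3.1; the submitters' processing notes name version 10.5 of Agilent Feature Extraction and limma. A value table that the authors deposited is on a log2 scale; its columns have medians of 5.99 to 6.01 and nearly equal distributions (sorted values differ by at most 0.126), and their ranks follow the median spot signal. The log2 scale was inferred from the range of values, and higher means brighter, without centring of genes. It served as an alternative.

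From the processed signal, log2 minus the array's 75th percentile was computed. Outlier spots (110 to 270 of 59305 per array) were dropped before repeated spots were averaged. The filter kept probes that both arrays of some group detected well above background, 33689 of 55681. Probes were named through a RefSeq table (26582 with a symbol, 29099 without). The kept probe with the highest mean stood for a gene, which left 24148 genes or accessions. Notch1, Notch2 and Rbpj had 2 probes, the other 7 genes 1. The array design names build mm9, so no coordinates come from it.

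All 8 arrays entered 1 limma model (limma 3.58.1, R 4.3.3) of 4 group means with moderated variances (4 residual and 3.26 prior degrees of freedom), tested two-sided, Benjamini-Hochberg adjusted over all genes of a comparison. Of these genes, 44 lacked a value on some array; no member did. Arrays of a group correlated at 0.979 to 0.987 over genes, others at 0.908 to 0.963. The steps were tested on simulated data. Alternatives were normexp (offset 50, on median spot and median background signals, the mean signal not being in the files) with quantile normalization, quantile or median scaling, the value table, looser and stricter filters, other probe rules, blocks for slide row or title numbers, trended and robust variances, only the arrays compared, and leaving out each array. The genes, the lists of other pathway and marker genes, and the rule for naming genes (up to 2 risen and 2 fallen per pathway list by smallest p, and the 3 genes nearest each called member by Pearson r) were chosen with earlier results of these data known. Other genes named, chosen after their values were seen or to complete a list, are Gata3, Cd3e, Cd8a, Aire, C1qa, Vwf, Kdr, Pecam1, Krt5, Epcam, Trp63, Ccr9 and those not passed. Likeness is a description over 8 arrays that share the 4 groups. Promoter stretches were matched for 9 of the 10 genes, all but Hes1.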

Additional observations from a re-analysis of the deposited data

How the results depend on the processing

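Over up to 21 alternatives, the maturation rises of Jag1, the rise of Dll4 in Sirpa-positive cells, the Notch4 subset differences and the Jag2 difference among immature cells kept their direction and their call wherever the gene was tested. Over all results for single genes, 800 values kept direction and side of the threshold, 45 fell below it, 24 passed it and 17 turned sign; the cause was not tested. The count of called members, 2 with maturation in Sirpa-positive cells, was 1 when probes had to be well above background on all 8 arrays, which leaves Jag1, Jag2, Hes1 and Dtx1 untested. In Sirpa-negative cells, with 4, it was 2 with dim probes kept. Among immature cells, with 4, it was 2 with dim probes kept and 2 with probes above background on all arrays. Among mature cells, with 3, it was 5 with title numbers blocked by set and 5 with trended and robust variances. For the difference between maturation effects, with 0, it was 1 with normexp and quantile normalization. Leaving out each array gave counts of 2 to 2, 2 to 5, 2 to 3, 1 to 4 and 0 to 0 in these comparisons.

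No called value turned sign. Leaving out an array moved uncalled log2 differences across 0: Jag2 (-0.94 to 0.30) and Rbpj (-0.49 to 0.11) with maturation in Sirpa-positive cells, Notch1 (-0.45 to 0.31) in Sirpa-negative cells, Dtx1 (-0.95 to 0.61) and Jag1 (-0.73 to 0.24) between immature subsets, Dtx1 (-0.93 to 0.094), Notch1 (-0.59 to 0.17) and Notch2 (-0.023 to 0.22) between mature subsets, and Dtx1 (-1.03 to 0.54) and Rbpj (-0.14 to 0.46) between maturation effects. The probe with the lower signal turned Notch1 (0.075) and Notch2 (-0.0066) between mature subsets and Rbpj (-0.0056) between maturation effects. Scaling to the array median moved the median difference of all genes with maturation of Sirpa-negative cells from -0.01 to -0.12 and its calls from 2228 higher and 1749 lower to 1804 and 1982. In Sirpa-positive cells the calls were 1051 and 613, and 1228 and 1216 with normexp and quantile normalization. The groups share no replicate number. With the slide row as a block the counts of called members were 2, 4, 3, 2 and 0, and with title numbers 1 to 4 against 5 to 8 as a block 2, 5, 4, 5 and 0. Jag2, Dtx1 and immature Jag1 were near background on some arrays, which limits their folds.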
